A study of Mus musculus with 6 samples.

Results

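The kappa light chain of a mouse antibody is encoded by 1 variable segment joined to 1 joining segment and followed by the constant segment Igkc. The variable segments, named Igkv, lie in a long array on chromosome 6, and each name gives a family, a group of segments with similar sequence, and then a position in the array. A B cell joins 1 of them to a joining segment during its development, and a mature B cell keeps the choice it ends with. The mixture of Igkv transcripts in a tissue therefore reflects which B lineage cells are there and how much antibody RNA each makes. Plasma cells, the antibody-secreting end stage of that lineage, carry very large amounts of this RNA. In RNA from whole tissue, more such cells and more RNA per cell cannot be told apart.

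The segments described here are the rows of the deposited gene table whose name starts with Igkv and whose transcript type contains IG_V, 95 of 33679 rows. They belong to 18 families, 88 are typed as genes and 7 as pseudogenes, and no filter on level was used to choose them. A further 2 Igkv rows, Igkv4-54 and Igkv4-71, are typed as protein coding only and were left out. Their knockout values were 0.08 and 1.16 FPKM, and all wild type values are listed at 0.

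RNA came from kidneys of mice after unilateral ureteral obstruction, an operation that blocks 1 ureter and scars the kidney. Both groups had the operation: 1 group carried a knockout of Cd248, which encodes a surface glycoprotein of fibroblasts and pericytes, and the other was wild type. The labels name 3 samples in each group, and the values used are those of the first knockout and of all wild type libraries (not analysed here: knockout replicates 2 and 3). Wild type values are given in the order of replicates 1, 2 and 3. The sources used here do not give strain, age, sex, time after the operation or the design of the knockout allele. The labels speak of pooled RNA and do not say whether replicates came from separate animals, so p-values measure no more than the spread from library to library, which may be technical.

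Values are FPKM, in which fragments are divided by the length of the transcript and by the mapped fragments of the library. Read depth is unknown, and an FPKM of 0 is given as listed at 0. The FPKM totals of all genes were 267394 to 285322 in the wild type libraries and 304426 in the knockout library. Cd248 itself is listed at 0 in the knockout and measured 9.03, 9.57 and 8.78 FPKM in wild type. The kidney markers Umod and Slc34a1 were present in every library, Umod at 473 FPKM in the knockout library and 340 to 640 FPKM in wild type, and 0 of 6 kidney markers passed the limma test used below (0 also at an unadjusted p under 0.05). Every knockout value below is a single measurement with no replicate of its own.

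The germline ends of 11 segments are shown first, because these letters tell apart the segments that led each library and those of family Igkv6, whose share differed most. Each line gives the last 60 bases of the variable exon, 5′ to 3′ on the coding strand, from GENCODE M21 transcripts on mm10. Capitals run from the codon of the conserved cysteine to the end of the segment, the germline part of the complementarity-determining region that spans the junction, where the light chain touches antigen. The first 4 led the knockout library and wild type replicates 1, 2 and 3 in that order, the next 2 ranked 2 and 3 in the knockout library and also in wild type replicate 2, and the last 5 are the Igkv6 segments with at least 1% of kappa usage in the knockout library.
Igkv10-96: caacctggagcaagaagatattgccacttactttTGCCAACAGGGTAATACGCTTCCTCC
Igkv5-43: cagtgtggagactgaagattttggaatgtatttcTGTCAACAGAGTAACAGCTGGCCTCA
Igkv1-117: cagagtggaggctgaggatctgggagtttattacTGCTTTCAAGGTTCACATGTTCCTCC
Igkv14-111: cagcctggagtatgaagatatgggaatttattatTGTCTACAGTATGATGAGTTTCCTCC
Igkv15-103: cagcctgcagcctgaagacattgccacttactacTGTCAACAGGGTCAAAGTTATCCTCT
Igkv1-110: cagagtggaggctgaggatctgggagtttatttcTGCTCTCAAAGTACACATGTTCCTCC
Igkv6-23: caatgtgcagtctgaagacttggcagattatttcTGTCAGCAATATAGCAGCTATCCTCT
Igkv6-15: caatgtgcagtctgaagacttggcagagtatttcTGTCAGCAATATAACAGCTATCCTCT
Igkv6-20: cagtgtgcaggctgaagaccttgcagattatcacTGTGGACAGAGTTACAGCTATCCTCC
Igkv6-17: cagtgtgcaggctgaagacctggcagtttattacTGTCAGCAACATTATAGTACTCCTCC
Igkv6-14: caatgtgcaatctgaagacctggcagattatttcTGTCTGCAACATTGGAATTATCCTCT
These windows lie at chr6:68631963-68632022 (minus strand) for Igkv10-96, chr6:69823355-69823414 (minus) for Igkv5-43, chr6:68121768-68121827 (plus) for Igkv1-117 and chr6:68256810-68256869 (plus) for Igkv14-111. Those of the 2 segments high in both groups lie at chr6:68437866-68437925 (plus) for Igkv15-103 and chr6:68271208-68271267 (plus) for Igkv1-110. The Igkv6 windows lie at chr6:70260409-70260468 for Igkv6-23, chr6:70406469-70406528 for Igkv6-15, chr6:70335841-70335900 for Igkv6-20 and chr6:70434952-70435011 for Igkv6-14, all on the minus strand, and at chr6:70371934-70371993 on the plus strand for Igkv6-17.

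The printed ends of Igkv6-23 and Igkv6-15 differ at 2 of 60 positions and those of Igkv1-110 and Igkv1-117 at 4, whereas Igkv10-96 and Igkv15-103 differ from Igkv6-23 at 26 and 19. Over the last 280 bases of the variable exon, the median identity between 2 segments was 87.1% within a family and 63.6% between families. Of the 4465 pairs of segments, 8 reached 97% identity, all within a family, among them Igkv5-43 with Igkv5-45 (98.9%), Igkv6-20 with Igkv6-29 (98.2%), Igkv17-127 with Igkv17-121 (97.9%), Igkv8-19 with Igkv8-28 (97.5%) and Igkv4-53 with Igkv4-60 (97.5%). Reads could be split between such segments, so the single values of the 16 segments in these pairs are uncertain. In all, 43 of 95 segments shared at least 1 stretch of 100 bases with another Igkv gene, and 4 shared more than 50% of theirs. Those 4 held 2.05% of kappa usage in the knockout library and 0.263% to 0.828% in wild type. The 43 held 50.4% in the knockout library and 59.1% to 60.6% in wild type. They include Igkv10-96, Igkv1-117 and Igkv1-110, which shared 12.3%, 16.1% and 16.2% of their stretches, so the values of such segments are not free of this uncertainty.

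The summed level of all 95 segments was far higher in the knockout library. It was 4480 FPKM there against 144, 119 and 77.3 FPKM in wild type, so the knockout value was 39.5 times the wild type mean of 113 ± 33.9 FPKM (SD, n = 3). The segments made up 1.47% of the FPKM of all genes in the knockout library and 0.0412% ± 0.0135 (SD, n = 3) in wild type. An exact permutation test of either quantity gave p = 0.25, which is the lowest value possible with 1 library against 3 (two-sided, on the absolute difference). The wild type libraries themselves differed, and replicate 3 was the lowest of them.

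Nearly all of the array was higher. In the knockout library 91 segments were above 0 and 79 reached at least 1 FPKM, against 58 to 70 above 0 and 24 to 33 at 1 FPKM or more in wild type. The knockout value lay above every wild type library for 89 of 95 segments, where 25.5% of all rows in the table did, and below every one for 0, where 20.7% of all rows did. The 6 exceptions, named after their values were seen, were Igkv14-111, Igkv5-37, Igkv1-122, Igkv1-115, Igkv9-129 and Igkv9-123. Igkv14-111 measured 9.94 FPKM in the knockout against 1.48, 0.92 and 10.95 FPKM in wild type. Igkv5-37, Igkv1-122 and the pseudogene Igkv1-115 are listed at 0 in the knockout and above 0 in at least 1 wild type library, Igkv9-129 measured 0.07 FPKM against up to 0.11 FPKM, and Igkv9-123 is listed at 0 in all 4 libraries. A set of 15 segments was above 0 in the knockout while every wild type value is listed at 0, led by Igkv4-90 at 16.93 FPKM.

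Segments were tested with limma on log2(FPKM + 1) over all genes whose mean over the libraries reached 0.5 FPKM, with Benjamini-Hochberg adjustment and a threshold of 0.05. Of the 95 segments 75 were tested, 41 were called higher and 0 lower, against 0.640% of all tested genes called higher and 0.0830% called lower. At an unadjusted p under 0.05 the counts were 70 higher and 0 lower. The share of all tested genes at that unadjusted threshold is not given here or below, so such counts have no reference. Segments near 0 in wild type entered this test only through a high knockout value, so neither the count of 41 nor that of 70 is one over all members. Among the 47 segments with a wild type mean of at least 0.5 FPKM, a choice that does not use the knockout value, 45 lay above every wild type library (27.0% of genes chosen alike), and 18 were called higher and 0 lower in a fit of such genes, where 0.352% of genes were called higher. Their median difference was 4.39 on the log2(FPKM + 1) scale, against -0.01 over all genes of that fit. As a ratio of FPKM, the knockout library stood above the wild type mean by a median of 33.8 times in these 47 segments, with quartiles of 10.8 and 54.1. The count of 41 fell to 20, 24 and 13 without wild type replicates 1, 2 and 3, and to 10 with a pseudocount of 0.1 FPKM.

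**Figure D1:**
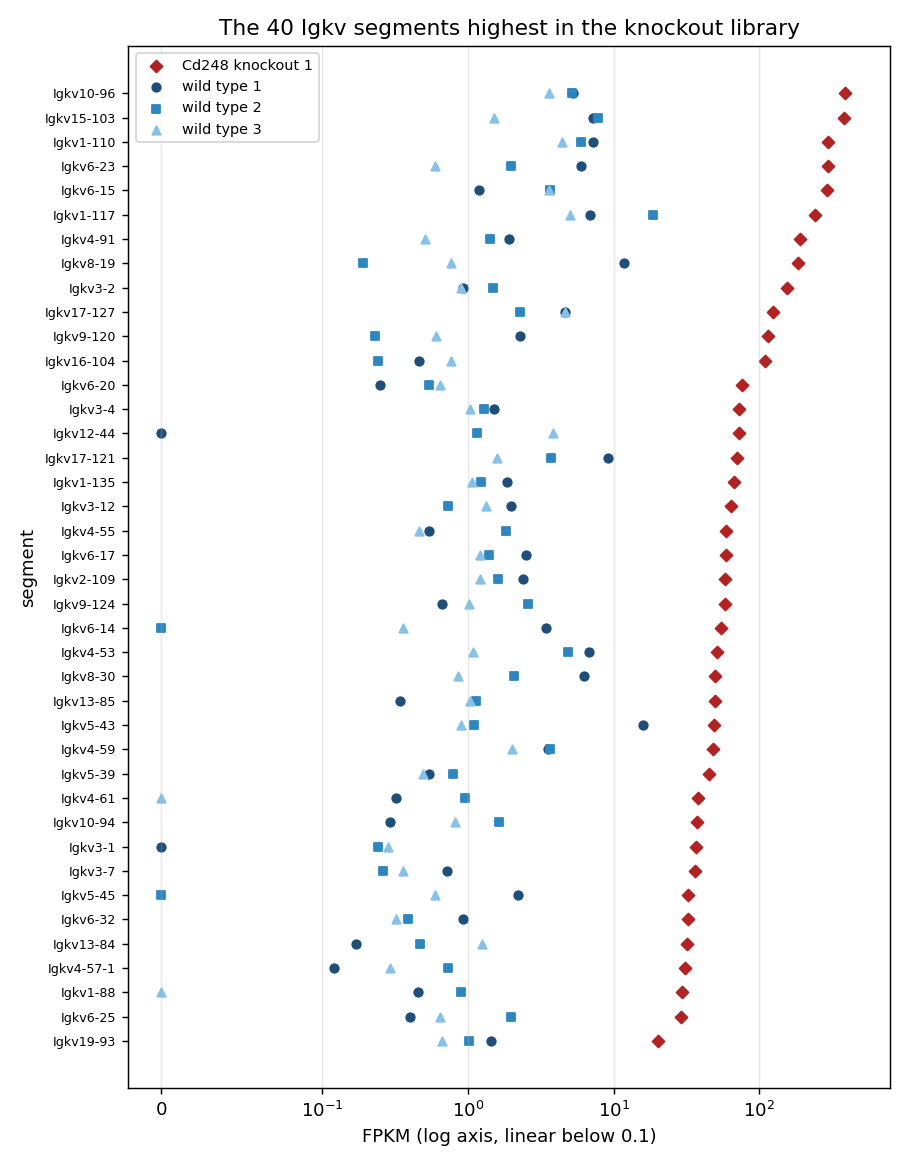
FPKM of the 40 Igkv segments highest in the knockout library, 1 row a segment and 1 point a library, on an axis that is logarithmic above 0.1 and linear below it. Every knockout point lies to the right of the 3 wild type points of its row, and the wild type points of a row are often spread over more than 1 tick of the log axis.

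Igkv10-96 was the highest segment of the knockout library. It measured 392 FPKM there against 5.30, 5.22 and 3.59 FPKM in wild type, a log2(FPKM + 1) difference of 6.12 (SE 0.22, limma adjusted p = 0.0036). The wild type values lay close together and far below the knockout value. Igkv1-110 (chromosome 6, 68270485 to 68271267, plus strand) measured 298 FPKM against 7.20, 6.02 and 4.44 FPKM, a difference of 5.46 (SE 0.25, limma adjusted p = 0.0067). With wild type replicate 2 left out its adjusted p was 0.0508. With Igkv1-117 these were the 3 segments found among the 10 highest of all 4 libraries.

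Other segments that were high in the knockout library were spread in wild type. Igkv15-103 measured 381 FPKM in the knockout against 7.18, 7.78 and 1.52 FPKM in wild type (difference 6.08, SE 0.80, limma adjusted p = 0.117), a call that turned to 0.0249 without wild type replicate 3. Igkv6-23 measured 297 FPKM against 5.94, 1.99 and 0.59 FPKM (6.54, adjusted p = 0.110). Igkv8-19 measured 184 FPKM against 11.85, 0.19 and 0.76 FPKM (5.95, adjusted p = 0.320), so that wild type replicate 1 stood far above the other wild type libraries. None of these 3 passed although each knockout value lay above all wild type values.

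Igkv6-15 measured 294 FPKM in the knockout against 1.19, 3.64 and 3.61 FPKM in wild type (6.36, limma adjusted p = 0.0275, and 0.101 and 0.160 without wild type replicates 2 and 3). Igkv4-91 measured 190 FPKM against 1.92, 1.42 and 0.51 FPKM (6.44, adjusted p = 0.0150, and 0.0843 and 0.0816 without replicates 1 and 2), 148 times the wild type mean. Igkv17-127 measured 124 FPKM against 4.63, 2.28 and 4.62 FPKM (4.73, adjusted p = 0.0260, and 0.165 and 0.156 without replicates 1 and 3). Without those libraries the differences were no smaller (6.54 and 6.53 for Igkv6-15, 6.65 and 6.51 for Igkv4-91, 4.86 in both cases for Igkv17-127). The calls of these 3 segments were also lost with all libraries kept: a pseudocount of 0.1 FPKM gave limma adjusted p-values of 0.0941, 0.0888 and 0.0770, and a fit without the filter gave 0.0767, 0.0501 and 0.0714. Igkv3-2, one of the segments nearest to the joining segments, measured 155 FPKM against 0.93, 1.48 and 0.90 FPKM (6.22, SE 0.19, adjusted p = 0.0030), and it passed under each alternative run.

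The smallest p-values belonged to segments of moderate level. Igkv3-4 measured 73.3 FPKM in the knockout against 1.52, 1.28 and 1.03 FPKM in wild type, and Igkv5-39 measured 45.3 FPKM against 0.54, 0.79 and 0.49 FPKM (differences of 5.03 and 4.85, limma adjusted p = 0.0030 for each). Igkv4-90 had the same adjusted p with 16.9 FPKM in the knockout library, but all its wild type values are listed at 0. It was tested only through its knockout value, and limma took the spread for its call from the other genes, so this p is no support for a difference.

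Usage is the share of a segment in the summed Igkv FPKM of its library, and it removes the difference in total. Measures of how far usage was concentrated on a few segments put the knockout library near the wild type libraries. Its highest segment held 8.75% of usage, against 11.0%, 15.8% and 14.2% in wild type, and its 10 highest held 57.1%, against 57.1%, 52.2% and 55.8%. The top 8 segments reached 50% of usage in the knockout library, and 9, 10 and 8 were needed in wild type. The effective number of segments, the inverse of the summed squared shares, was 24.1 in the knockout library and 21.9 ± 0.917 (SD, n = 3) in wild type (exact permutation p = 0.25, the smallest possible). That measure weights the leading segments, and without the leading segment of every library the difference turned from 2.18 to -3.63; this alternative was chosen after seeing the data. The number from Shannon entropy, which weights rare segments more, was 36.5 in the knockout library and 33.1 to 36.9 in wild type (exact permutation p = 0.75).

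**Figure D2:**
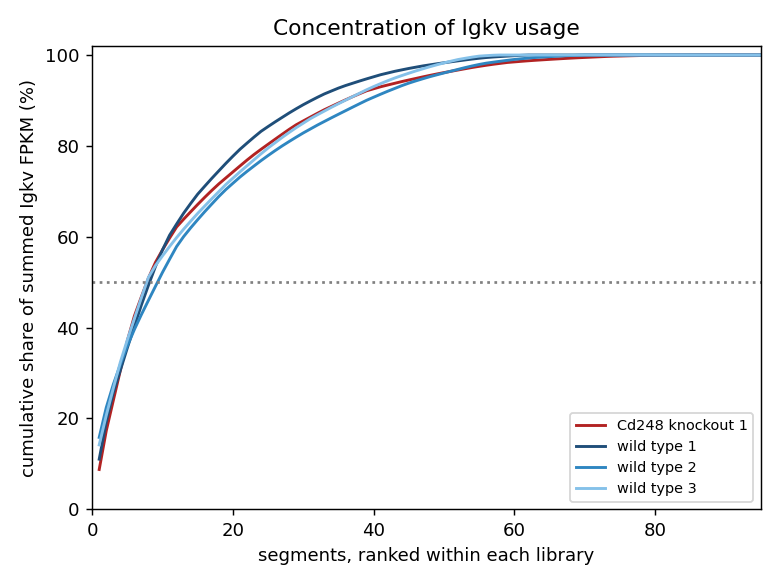
Cumulative share of summed Igkv FPKM, in percent, against the number of segments, ranked within each library from high to low, with 1 line a library and a dotted line at 50%. The knockout line starts lowest, at 8.75%, and crosses 50% together with the wild type lines, at 8 segments against 8 to 10.

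Each library was led by a different segment. Igkv5-43 held 11.0% of usage in wild type replicate 1 and 0.927% to 1.16% in the other 3 libraries, where it ranked 26th to 30th. Igkv1-117 held 15.8% in wild type replicate 2 and 4.73% to 6.47% elsewhere. Igkv14-111 held 14.2% in wild type replicate 3, 1.02% and 0.775% in wild type replicates 1 and 2, and 0.222% in the knockout library. Igkv10-96, the leader in the knockout library, was the least uneven of the 4, with 8.75% there against 3.67%, 4.40% and 4.64% in wild type. In FPKM, Igkv1-117 measured 244 in the knockout against 6.84, 18.77 and 5.00 (limma adjusted p = 0.172, and 0.0334 without wild type replicate 2). Igkv5-43 measured 49.2 FPKM against 15.92, 1.10 and 0.90 FPKM (adjusted p = 0.481, and 0.0251 without wild type replicate 1). Each was far higher in the wild type library it led than in the other wild type libraries, and the knockout value lay above all of them. The wild type leaders rest on 10.95 to 18.77 FPKM, and Igkv5-43 shares 33.6% of its stretches of 100 bases with another Igkv gene.

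As whole profiles over segments, the knockout library stood on average no farther from the wild type libraries than these stood from each other. The distance between 2 profiles, the summed absolute differences of segment usage divided by 2, was 43.0, 41.2 and 40.7 percentage points between the knockout and each wild type library in turn. It was 42.5, 47.9 and 41.4 points between wild type libraries. Over families in place of segments the mean distance was 27.4 points from knockout to wild type and 25.9 points among wild type libraries. Spearman's rho over the 95 segments was 0.71, 0.71 and 0.74 for the knockout library with each wild type library, and 0.64, 0.68 and 0.74 among wild type libraries. These values describe pairs that share libraries, over segments that share sequence, and the wild type values rest on low FPKM. Between 3 and 6 of the 10 highest segments were shared by any 2 libraries.

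The shares of single segments varied from library to library. The knockout share lay above every wild type share for 35 of 95 segments (36.8%), below every one for 12 (12.6%) and inside the wild type range for 48. Of the 35, 15 were segments listed at 0 in all wild type libraries, for which any knockout value lies above. Any 1 library set against 3 lies outside their range for many segments, so these counts do not show a difference between the groups. The largest gains outside the wild type range were those of Igkv10-96 (4.51 points), Igkv6-23 (4.43 points), Igkv15-103 (4.0 points), Igkv6-15 (3.72 points) and Igkv4-91 (3.19 points). Igkv6-23 held 6.62% of usage in the knockout against 4.11%, 1.68% and 0.763% in wild type. Igkv4-91 held 4.25% in the knockout against 1.33%, 1.20% and 0.660% in wild type.

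Lower shares were found for Igkv14-111 (-5.10 points, with 1 wild type library at 14.2%), Igkv17-121, Igkv4-53, Igkv4-57 and Igkv4-72. Igkv17-121 held 1.57% of usage in the knockout against 6.36%, 3.14% and 2.04% in wild type. Igkv4-53 held 1.15% against 4.72%, 4.10% and 1.40%. In FPKM these 2 segments were still higher in the knockout library, Igkv17-121 at 70.3 against 9.19, 3.72 and 1.58 FPKM and Igkv4-53 at 51.5 against 6.82, 4.87 and 1.08 FPKM, without passing limma (adjusted p = 0.271 and 0.300). Igkv4-57 and Igkv4-72 were at 0.445% and 0.252% in the knockout library against wild type means of 2.46% ± 1.84 and 1.96% ± 1.57 (SD, n = 3).

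By family, Igkv6 held the largest share in the knockout library. Its 9 segments made up 19.5% of usage there against 10.3%, 9.14% and 10.1% in wild type, a difference of 9.67 points from a wild type mean of 9.84% ± 0.618 (SD, n = 3). The difference was 9.32 to 9.90 points with any 1 wild type library left out, and 10.3 points without the leading segments. In FPKM the family summed to 874 in the knockout against 14.9, 10.8 and 7.79 in wild type, 78.3 times the mean. An exact permutation test gave p = 0.25, and 0.643 after Benjamini-Hochberg adjustment over the 18 families, as no family could pass with 1 library against 3.

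Within family Igkv6 most of the difference lay in Igkv6-23 and Igkv6-15, a pair singled out after its values were seen. Together they held 13.2% of usage in the knockout against 4.94%, 4.75% and 5.43% in wild type. The other 7 members held 6.32% in the knockout against 5.36%, 4.39% and 4.64% in wild type. The order of the 2 segments differed among wild type libraries: Igkv6-23 was the higher in replicate 1, and Igkv6-15 in replicates 2 and 3. The pair is 94.6% identical over the last 280 bases, and neither shares a stretch of 100 bases with another Igkv gene.

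Families Igkv10, Igkv3 and Igkv15 also lay above the wild type range. Igkv10 held 9.65% of usage in the knockout against 3.87%, 5.85% and 5.71% in wild type, nearly all of it Igkv10-96; without the leading segments the difference turned from 4.51 to -0.12 points. Igkv3, the family next to the joining segments, held 8.52% against 4.44%, 7.05% and 5.74%. Igkv15, which has Igkv15-103 as its single row, held 8.50% against 4.97%, 6.56% and 1.97%. Among families below 5% everywhere, Igkv9 held 3.86% against 2.04%, 2.48% and 2.10%. Igkv16, with Igkv16-104 as its single row, held 2.46% against 0.318%, 0.202% and 0.983%. Igkv7, listed at 0 in all wild type libraries, also lay above the range. Of these small families, Igkv2 (1.51% against 1.66% to 3.70%) and Igkv19 (0.448% against 0.854% to 0.990%) lay below it, and Igkv13 and Igkv11 inside it.

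Igkv4, the family with the most rows, lay below the wild type range. Its 24 segments held 11.9% of usage in the knockout against 16.0%, 18.5% and 14.3% in wild type. Without Igkv4-91, which went the other way and was left out after its values were seen, the other 23 segments held 7.62% in the knockout. They held 13.6% to 17.3% in wild type. Igkv4-61 (0.844% against at most 0.809%) and Igkv4-57-1 (0.693% against at most 0.615%) also lay above the wild type range. So did Igkv4-90, Igkv4-62, Igkv4-51, Igkv4-81 and Igkv4-60, which are listed at 0 in all wild type libraries. In FPKM every one of the 24 lay above all wild type libraries. Igkv17 was at 4.33% against 5.06% to 9.57%, Igkv5 at 3.22% against 3.83% to 14.3%, Igkv12 at 2.65% against 2.89% to 9.68% and Igkv14 at 0.780% against 1.02% to 14.9%. For the last 3 the knockout share lay close to the lowest wild type library, and 1 wild type library set the upper end.

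Igkv1 and Igkv8 lay inside the wild type range. Igkv1 held 14.5% in the knockout against 11.5%, 22.8% and 13.7% in wild type, the high value being that of replicate 2, which Igkv1-117 led. Igkv8 held 6.34% against 13.3%, 6.41% and 3.62%, with the high value in replicate 1, where Igkv8-19 was second. In all, 7 families lay above the wild type range, 7 below it and 4 inside it. Like the counts of segments, these counts do not show a difference between the groups.

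**Figure D3:**
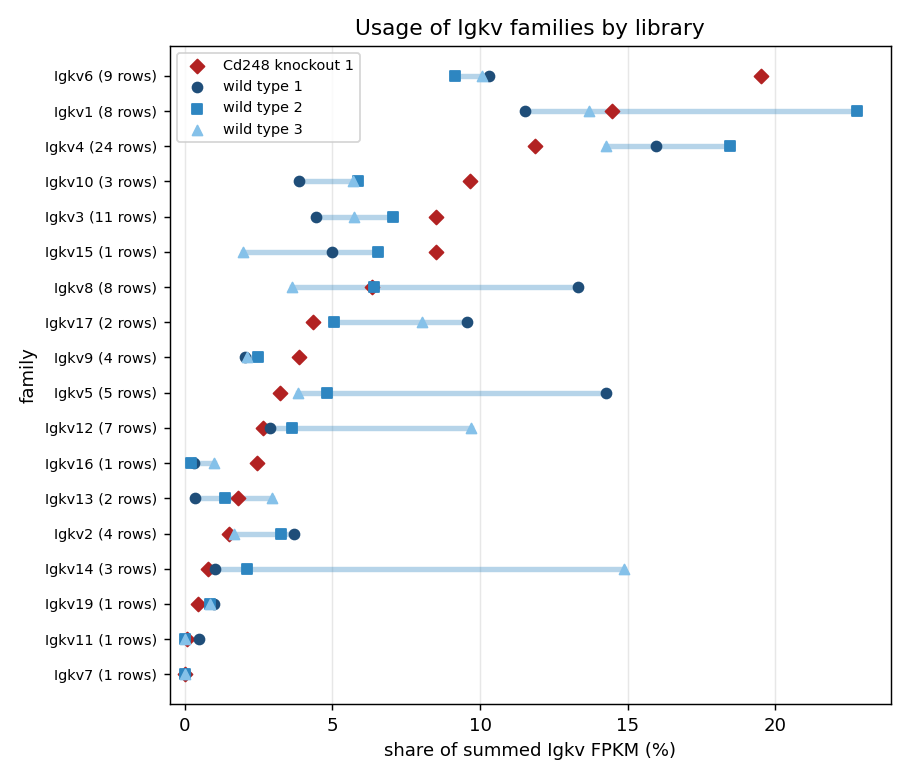
Share of summed Igkv FPKM, in percent, held by each of the 18 families (rows of the table in brackets), with 1 point a library and a bar over the range of the 3 wild type libraries. Igkv6 stands at 19.5% in the knockout library against 9.14% to 10.3% in wild type, while Igkv1, Igkv8, Igkv5, Igkv12 and Igkv14 have wide wild type bars set by 1 library.

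The families are not spread evenly over the locus. The 95 segments lie between positions 67555497 and 70704177 of chromosome 6 (mm10, GENCODE M21), upstream of Igkj1 at 70722562 and of Igkc at 70726435 to 70726966. Segments on the strand of Igkc join by deletion of the DNA between, and those on the opposite strand join by inversion; 38 segments are on the plus and 57 on the minus strand. The share of plus-strand segments was 45.6% in the knockout against 39.5%, 50.9% and 52.5% in wild type, inside the wild type range.

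Cut into 4 windows of equal width by distance from Igkj1, usage in the knockout library differed in the middle of the array. The window from 822 to 1537 kb, in which 17 of 25 segments are of family Igkv4, held 12.3% of usage in the knockout against 29.3%, 23.8% and 26.3% in wild type. The next window outward, from 1611 to 2296 kb, with Igkv10-96, Igkv15-103 and Igkv4-91, held 29.4% against 14.0%, 19.2% and 13.9%. The window nearest to the joining segments, from 18.4 to 779 kb, with all rows of the Igkv6, Igkv3 and Igkv8 families, held 34.4% against 28.9%, 22.9% and 19.4%. The farthest window, from 2419 to 3166 kb, held 24.0% against 27.8%, 34.0% and 40.3%. The knockout library lay outside the wild type range in all 4 windows. The shares of the windows depend on each other, because they add up to the whole. Like the counts of segments and families, this count does not show a difference between the groups. The number of windows was chosen freely, and single segments of high usage weigh heavily in each.

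**Figure D4:**
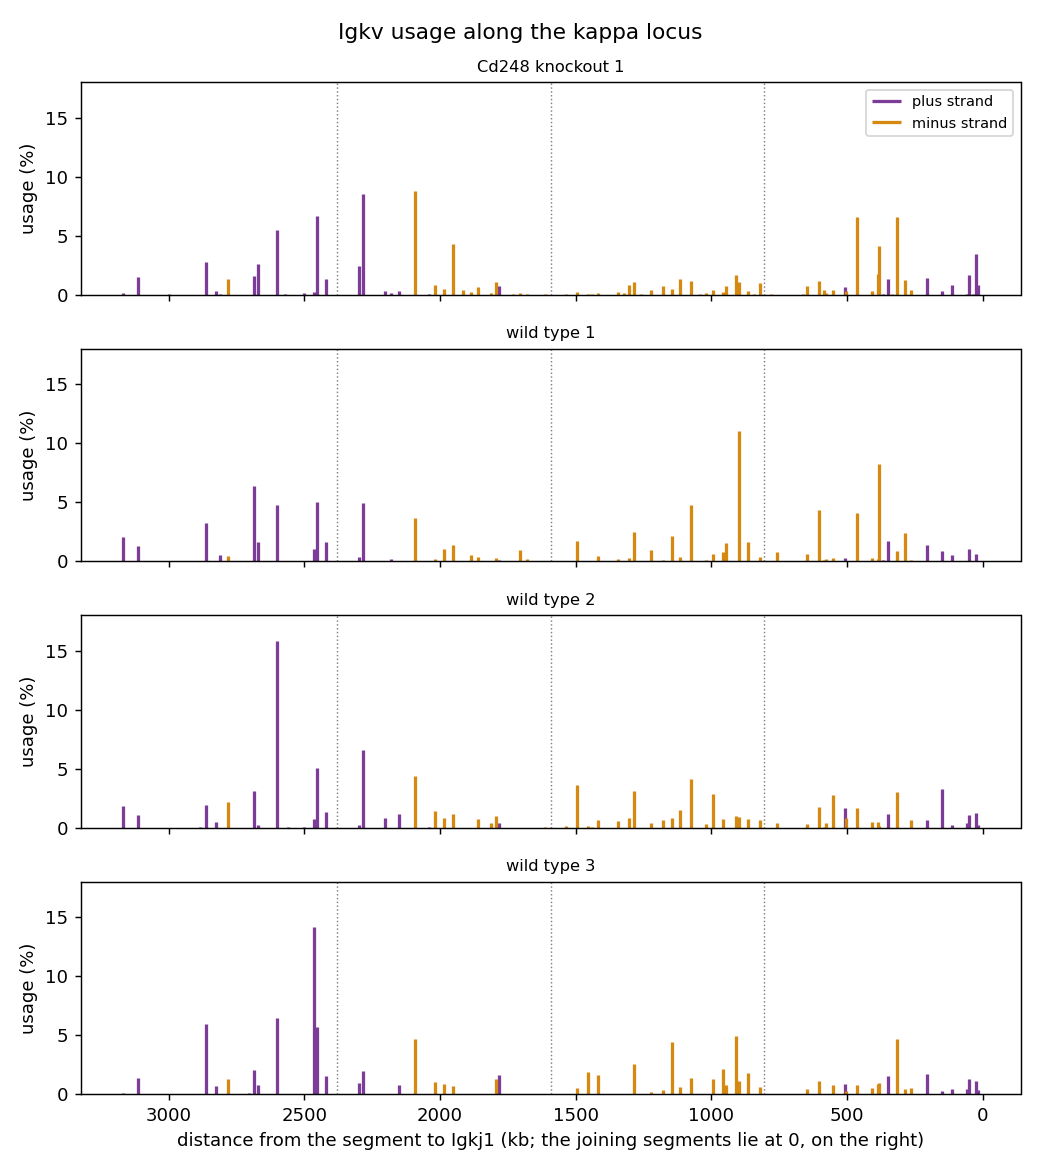
Usage of every segment, in percent of summed Igkv FPKM, against its distance from Igkj1 in kb, with 1 panel a library, colours for the 2 strands and dotted lines between the 4 windows. The knockout panel is low between 822 and 1537 kb, where it holds 12.3% against 23.8% to 29.3% in wild type, and the tall single bars of the wild type panels (Igkv5-43, Igkv1-117 and Igkv14-111) differ from library to library.

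The constant segment was higher beside the variable segments. Igkc measured 4153 FPKM in the knockout against 119, 89.2 and 61.7 FPKM in wild type (limma adjusted p = 0.0190), and 3 of the 6 kappa joining and constant genes were called higher and 0 lower. Of these, Igkj3 was tested only through its knockout value (wild type mean 0.347 FPKM), and 2 of the 5 with a wild type mean of at least 0.5 FPKM, Igkc and Igkj2, were called. Summed Igkv FPKM was 1.08 times that of Igkc in the knockout library and 1.21, 1.33 and 1.25 times in wild type. The joining segments are very short, which makes their FPKM uncertain. Of their summed FPKM, Igkj2 held 36.4% in the knockout library and 31.2% to 42.3% in wild type, Igkj1 25.0% and 5.45% to 45.6%, and Igkj5 29.4% and 4.25% to 44.3%, so the wild type range covered the knockout share of each. Igkj3, which is known for a defective splice site and low use, held 0.774% and 0.590% to 1.61%.

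The lambda light chain, the alternative to kappa, was higher as well. Of 7 lambda variable and constant genes 6 were tested and called higher by limma, but Iglv2 and Iglv3 were tested only through their knockout values (wild type means of 0.113 and 0.450 FPKM). The 4 with a wild type mean of at least 0.5 FPKM were all called, among them Iglv1 with 406 FPKM in the knockout against 8.08, 5.80 and 4.89 FPKM (adjusted p = 0.0067). Kappa made up 91.0% of light chain variable FPKM in the knockout against 94.1%, 95.0% and 93.8% in wild type, a difference of -3.29 points (exact permutation p = 0.25). Both light chains and the heavy chain variable segments, whose sum was 3309 FPKM against 72.3 to 107 FPKM, were thus higher in the same library.

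Genes of antibody-secreting cells were among those called higher, and no tested gene of the B cell or precursor lists was. This contrast depends on how the lists were drawn. Cd79a, called at 6.69 against 1.10 ± 0.256 FPKM, was placed among the plasma cell genes. Cd79b, not called at 5.37 against 2.21 ± 0.516 FPKM, was placed among the B cell genes (SD, n = 3 for each). Of 15 plasma cell genes 14 were tested, 6 were called higher by limma and 0 lower, with a median difference of 0.82. At an unadjusted p under 0.05, 12 were higher and 0 lower. The 6 were Jchain, which links antibody multimers, at 310 FPKM against 7.54 ± 2.83 FPKM, Mzb1, a chaperone of antibody assembly, at 17.6 against 1.26 ± 0.078 FPKM, Pou2af1, a B lineage coactivator of immunoglobulin promoters, at 9.56 against 0.677 ± 0.112 FPKM, Derl3, Cd79a and Tent5c (SD, n = 3 for each). Irf4 was at 5.27 against 1.46 ± 0.315 FPKM (SD, n = 3) without being called (limma adjusted p = 0.116). Tnfrsf17, not tested, was at 1.19 against 0.0433 ± 0.0751 FPKM (SD, n = 3). Others of the list differed less: Xbp1, a transcription factor of secretory cells, was at 59.0 against 48.2 ± 2.84 FPKM and Creld2 at 18.3 against 15.7 ± 1.33 FPKM. Edem1 was at 19.6 against 14.6 ± 0.534 FPKM and Prdm1 at 2.51 against 1.59 ± 0.252 FPKM (SD, n = 3 for each, none called). Sdc1, a surface marker of plasma cells that epithelium also carries, measured 18.5 FPKM in the knockout against 32.1, 24.0 and 19.2 FPKM in wild type (limma adjusted p = 0.680). Of 10 B cell genes 5 were tested and 0 called by limma, with 2 higher at an unadjusted p under 0.05; Cd22, an inhibitory receptor of B cells, was at 1.36 against 1.11 ± 0.0702 FPKM (SD, n = 3). Of 7 genes of precursor cells and recombination 2 were tested and 0 called, with 1 higher at an unadjusted p under 0.05. Vpreb3, tested only through its knockout value, was at 1.79 against 0.127 ± 0.136 FPKM (SD, n = 3). Rag1, a subunit of the recombinase that joins the segments, is listed at 0 in the knockout and reached at most 0.01 FPKM in wild type.

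Summed over the marker lists, plasma cell markers were at 354 FPKM in the knockout library and 28.0 to 46.5 FPKM in wild type (limma called 3 of 5 tested markers higher; Tnfrsf17 was listed at 0 in wild type replicates 1 and 2). Jchain made up 310 FPKM of the knockout sum, and the other 5 markers together were at 44.6 FPKM against 35.8, 27.6 and 22.7 FPKM, 1.56 times the wild type mean. B cell markers were at 7.36 against 2.52 to 3.63 FPKM (0 of 2 tested markers called, 2 at an unadjusted p under 0.05), T cell markers at 14.3 against 7.39 to 12.2 FPKM (0 of 4 called, 1 at an unadjusted p under 0.05) and lymph node stroma markers at 15.7 against 14.0 to 21.2 FPKM (0 of 3 called, 1 at an unadjusted p under 0.05). The lymph node stroma genes went in different directions. Ccl21a was at 8.02 against 14.0 ± 4.72 FPKM and Ccl19 at 5.80 against 2.35 ± 1.45 FPKM. Cxcl13, tested only through its knockout value, was at 1.69 against 0.207 ± 0.160 FPKM, and Cr2, not tested, at 0.15 against 0.187 ± 0.0635 FPKM (SD, n = 3 for each). Macrophage markers were at 89.4 against 81.9 to 106 FPKM (0 of 3 called, 0 at an unadjusted p under 0.05). Of 3 spleen markers 1, Hbb-bt, a globin gene, has a value, 31.8 FPKM against 24.7 to 76.8 FPKM (not called). The part of these cell types in the Igkv levels and shares was not tested.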

How the data were processed

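The deposited table gives FPKM for each gene in 4 libraries, per the file headers. Processing by the authors used cutadapt 1.9, FastQC and HISAT2 2.0.4 with build mm10, per the submitters' processing notes, which give no roles; the sources used here do not give the program and annotation behind the FPKM values. RNA was purified on oligo(dT) beads, per the labels' protocols. Samples were grouped by title. The comparison was planned as 3 libraries against 3 and made as 1 against 3. No read counts are in the table, so no counting intervals were computed.

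Igkv rows were taken by name and type. Usage is the percent of summed Igkv FPKM, without a filter. Single values per library were tested with the exact permutation test, two-sided. Levels were tested with limma 3.58.1 in R 4.3.3 on log2(FPKM + 1) with a mean-variance trend, over the 16871 genes whose mean reached 0.5 FPKM, with Benjamini-Hochberg adjustment (2 residual and 2.32 prior degrees of freedom); the spread comes from wild type alone. The fit was also run on simulated data, whose outcome is not given here. Those data were normal log2 values without a floor at 0, so the run does not bear on segments listed at 0 in wild type. Coordinates and transcript sequences are from GENCODE M21 (GRCm38, the same assembly as mm10), which held all 95 segments; 0 were in the RefSeq promoter table.

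Named segments were the 10 highest in the knockout library, the 5 highest by wild type mean, the 5 largest gains and losses of usage outside the wild type range, any called lower and the 3 smallest p-values, with families of at least 5% usage in any library and called genes of the listed partners. The members, lists and rules were chosen with earlier results of these data known. Alternatives were other pseudocounts, filters, scalings and limma settings, leaving out a wild type library, pseudogenes, low segments or leading segments, and weighting by transcript length.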

Additional observations from a re-analysis of the deposited data

How the results depend on the processing

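The number of segments called higher was 41 and became 10 with a pseudocount of 0.1 FPKM, 18 among genes with a wild type mean of at least 0.5 FPKM, and 13 to 24 with 1 wild type library left out; the other 8 alternatives stayed within 1.5 times, and 0 segments were called lower in each. Scaling to the same FPKM total moved the median of all tested genes from -0.01 to -0.11. The differences of summed level, share of the FPKM total, kappa share and the Igkv6 and Igkv4 shares kept their sign under each alternative run. The Igkv1 difference of -1.52 points turned to 1.86 with wild type replicate 2 left out (range -3.76 to 1.86 with any 1 left out) and to 1.61 without the leading segment of each library, and the Igkv8 difference of -1.44 turned to 1.33 with replicate 1 left out (range -3.52 to 1.33). Without the leading segments the Igkv10 difference of 4.51 points turned to -0.12 and that of the effective number of segments, 2.18, to -3.63. The difference in the share of the 10 highest segments, 2.10 points, turned to -0.031 without Igkv10-96. The mean distance between profiles was 41.6 points from knockout to wild type and 44.0 among wild type libraries; over families it was 27.4 and 25.9, and over segments with replicate 2 left out the wild type distance became 47.9 (range 41.4 to 47.9). The cause was not tested. Over 19 named segments, 0 of 246 alternative values reversed, 14 lost a call and 7 gained one. These segments were named by their values in the same libraries, so the absence of reversals does not show that the differences are stable. Weighting by transcript length, which used GENCODE lengths because the table holds none, and leaving out the leading segments were chosen after seeing the data. No paired analysis was possible because only replicate number 1 has a value in both groups.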
